A study of Mus musculus with 9 samples.

Results

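The embryonic meniscus was compared, gene by gene, with the midpoint of the articular cartilage and the cruciate ligaments, the tissues on either side of it in the knee. The comparison used all 9 arrays of the study, 3 of each tissue: the mean of the meniscus arrays was set against the average of the cartilage mean and the ligament mean on the log2 scale. A gene with a difference near 0 had in meniscus about the level of an equal blend of both neighbours, and a gene far from 0 departed from that blend. Of 7234 named genes tested, 78 were called higher and 43 lower in meniscus than the midpoint, 121 in all. All samples were total RNA from hindlimbs of CD-1 mice, an outbred strain, taken at embryonic day 16, with no treatment or genetic change given in the labels. Each sample was amplified from a small input with a whole-transcriptome kit, labelled with biotin and hybridised to 1 Illumina array. How the tissues were dissected, and how many embryos gave each sample, is stated neither in the labels nor in the files, so the p-values measure only how far these arrays spread, and that spread may be technical.

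The meniscus is a wedge of fibrous cartilage that spreads load between femur and tibia. Its adult matrix combines the collagen fibres of ligament with proteoglycans of hyaline cartilage, and it arises with both neighbours from the interzone, the band of flattened cells that marks the future joint. Articular cartilage is built on collagen II, aggrecan and matrilins under the transcription factor Sox9, and cruciate ligament is built on collagen I fibres whose width is set in part by small leucine-rich proteoglycans.

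The arrays of the 3 tissues were not measured on equal terms. Median scanner signals were 93.4 to 101.2 in meniscus, 99.5 to 103.8 in cartilage and 147.4 to 209.7 in ligament, and 28.9% to 31.9%, 29.4% to 35.6% and 18.0% to 20.9% of probes respectively were above background (detection p below 0.01). The median correlation of arrays across genes was 0.946 within meniscus, 0.936 within cartilage and 0.835 within ligament, about the value between a ligament and a meniscus array (0.84). The median SD over named genes was 0.25 for meniscus, 0.26 for cartilage and 0.50 for ligament (log2, n = 3). Ligament and its array set cannot be told apart, and ligament makes up an equal share of every midpoint. The median named gene itself lay 0.15 above the midpoint, 0.03 above cartilage and 0.27 above ligament. Differences below are therefore given relative to the median named gene, as log2 units with the standard error of the fit, and p-values refer to the unshifted differences.

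The called genes that stood furthest above the midpoint encode an RNA-binding protein, enzymes, a short-chain collagen, a secreted growth-factor binding protein and a guidance signal. The called genes furthest below it encode an enhancer of procollagen processing, cartilage and ligament matrix proteins, and several regulators. The calls were made with limma at a Benjamini-Hochberg adjusted p under 0.05, taken over all 9166 features tested. The 78 higher genes were 1.08% of the named genes tested and the 43 lower genes were 0.594%, 1.67% together. At an unadjusted p under 0.05 the counts were 933 (12.9%) and 340 (4.7%). The differences of the called genes ran from 0.68 to 2.40 for the higher and from -2.64 to -0.99 for the lower genes, with standard errors between 0.15 and 0.44. The balance between both directions depended on the scaling: cyclic loess in place of quantile normalization gave 42 higher and 51 lower genes, and centring on the median feature gave 38 higher and 59 lower. Without any 1 of the meniscus arrays 0 to 1 named genes were called, and without any 1 of the cartilage arrays 1 to 10. Without ligament replicate 1, 2 or 3 the number was 363, 149 or 225. All 121 genes had the same direction and an unadjusted p under 0.05 in each of these 9 fits. The genes were chosen on these same arrays, so that outcome was largely fixed by the choice and tests nothing.

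**Figure D1:**
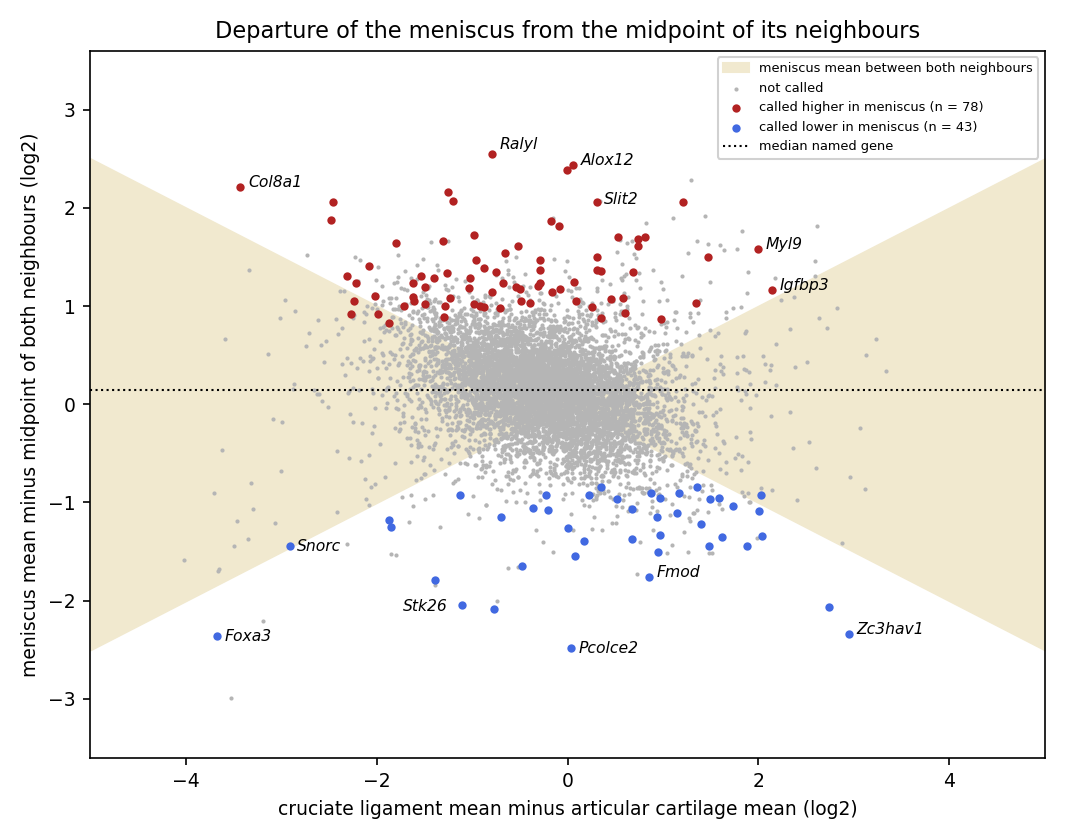
Each point is 1 of 7234 named genes, with the difference between the ligament and cartilage means on the x axis and the difference between the meniscus mean and the midpoint on the y axis (both log2). In the shaded area the meniscus mean lies between both neighbours. Most of the 78 genes called higher and the 43 called lower lie outside it, and the dotted line marks the median named gene at 0.15.

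A departure from the midpoint is not always a level outside both neighbours. Over all named genes the meniscus mean lay above both neighbours in 39.5%, between them in 41.1% and below both in 19.4%. Of the 78 higher genes the mean lay above both in 74 and between in 4, and all 3 meniscus arrays were above all 6 others in 57. Of the 43 lower genes the mean lay below both in 41 and between in 2 (Chrdl1 and Snorc), and all 3 meniscus arrays were below all 6 others in 30. Such a full separation occurred in 5.17% of named genes upward and in 1.81% downward. The call itself favours genes with separated arrays, so these counts describe the called genes and test nothing. Both neighbours were themselves called different from each other for 38 of the higher and 25 of the lower genes, where 15.2% of all named genes were called between them (3.84% higher and 11.3% lower in ligament).

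The probe's detection differed between the 2 directions. For 44 of the 78 higher genes the probe was not well above background on any ligament array and for 6 on any cartilage array, and 13 were detected on all 9 arrays. Of the 43 lower genes 30 were detected on all 9 arrays, and for 10 the probe was above background on no meniscus array. Of the higher genes 22 passed the detection filter through meniscus alone, as did 8.71% of all named genes, and had to be brighter there to be tested. Of the lower genes 3 passed through cartilage alone and 5 through ligament alone, as did 645 and 30 of all 7234 named genes. Where a probe was above background on no array of the dimmer tissue, the fold is given as a bound.

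Alox12, the arachidonate 12-lipoxygenase, stood well above both neighbours. In meniscus replicates 1 to 3 its normalized log2 signal was 7.56, 7.78 and 7.77, against 4.87, 5.13 and 5.70 in cartilage and 4.54, 5.23 and 6.11 in ligament. All meniscus arrays were high and no neighbour array came near them, and its probe was above background on only 1 array of each neighbour. Alox12 thus passed the detection filter through meniscus alone and had to be brighter there to be tested. The difference was 2.29 ± 0.33, which is 4.88-fold (limma, Benjamini-Hochberg adjusted p = 0.0211).

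Ralyl, an RNA-binding protein of the heterogeneous nuclear ribonucleoprotein family, had signals of 7.53, 8.13 and 7.99 in meniscus, 5.21, 5.85 and 6.13 in cartilage and 5.56, 4.81 and 4.44 in ligament. The meniscus arrays stood apart from both neighbours, and no ligament array was above background. The difference was 2.40 ± 0.30, at least 3.79-fold (limma, Benjamini-Hochberg adjusted p = 0.0211).

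Slit2, a secreted guidance protein that signals through Robo receptors, had 7.50, 7.38 and 7.31 in meniscus, 4.76, 4.86 and 5.95 in cartilage and 4.60, 5.45 and 6.42 in ligament. The meniscus arrays were close together and above all others, and 1 array of each neighbour was above background. Slit2 also passed the detection filter through meniscus alone, so its direction is partly fixed by the filter. The difference was 1.91 ± 0.40, or 3.75-fold (limma, Benjamini-Hochberg adjusted p = 0.0447).

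Pcolce2, which enhances the removal of the C-terminal propeptide from procollagens, stood furthest below the midpoint among the called genes detected on all 9 arrays. Its signals were 5.83, 5.46 and 6.11 in meniscus, 7.93, 8.86 and 8.02 in cartilage and 8.97, 7.64 and 8.30 in ligament. Both neighbours had nearly the same level, every array of theirs lay above every meniscus array, and all 9 arrays were above background. The difference was -2.64 ± 0.33, a level 6.22-fold lower (limma, Benjamini-Hochberg adjusted p = 0.0211).

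Fmod encodes fibromodulin, a small leucine-rich proteoglycan that binds collagen fibrils in tendon, ligament and cartilage. Its signals were 5.94, 5.85 and 6.45 in meniscus, 7.29, 7.42 and 7.53 in cartilage and 8.42, 8.34 and 8.05 in ligament. The 3 tissues did not overlap, with meniscus lowest and ligament highest. The difference of Fmod was -1.91 ± 0.20, 3.76-fold lower (limma, Benjamini-Hochberg adjusted p = 0.0211), and a further probe of the gene differed by -1.23 before the median gene was subtracted.

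The promoters of 4 of these genes, 2 higher and 2 lower in meniscus, are shown because they were among the called genes furthest beyond their nearer neighbour and RefSeq held a single promoter for each. Each is the 250 bases before the gene's start, read 5′ to 3′ on the gene's strand (RefSeq, build GRCm38.p6). Capitals mark matches on either strand to the TATA box (TATAAA), the GC box (GGGCGG) or the TEAD site (CATTCC).
Alox12 promoter, chr11:70255371-70255620, minus strand: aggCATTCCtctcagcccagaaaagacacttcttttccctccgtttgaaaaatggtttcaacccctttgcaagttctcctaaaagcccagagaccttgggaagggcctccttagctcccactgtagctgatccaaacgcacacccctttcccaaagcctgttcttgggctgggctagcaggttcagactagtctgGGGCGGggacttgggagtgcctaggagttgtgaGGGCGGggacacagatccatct
Slit2 promoter, chr5:47982905-47983154, plus strand: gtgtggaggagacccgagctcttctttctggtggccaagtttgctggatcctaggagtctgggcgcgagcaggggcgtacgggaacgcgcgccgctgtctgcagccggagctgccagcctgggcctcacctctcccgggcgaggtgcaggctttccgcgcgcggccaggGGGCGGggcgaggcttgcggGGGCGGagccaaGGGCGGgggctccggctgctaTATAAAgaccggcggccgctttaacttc
Pcolce2 promoter, chr9:95637378-95637627, plus strand: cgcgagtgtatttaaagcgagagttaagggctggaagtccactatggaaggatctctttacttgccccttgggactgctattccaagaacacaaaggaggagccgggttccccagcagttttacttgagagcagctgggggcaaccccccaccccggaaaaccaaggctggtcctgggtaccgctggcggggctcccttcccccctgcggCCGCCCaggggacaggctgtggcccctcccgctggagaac
Fmod promoter, chr1:134037004-134037253, plus strand: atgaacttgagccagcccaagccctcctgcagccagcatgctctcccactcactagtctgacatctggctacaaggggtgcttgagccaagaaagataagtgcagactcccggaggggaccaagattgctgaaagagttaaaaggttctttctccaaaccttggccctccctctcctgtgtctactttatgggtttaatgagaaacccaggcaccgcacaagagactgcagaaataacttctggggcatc
The Alox12 sequence held 2 GC boxes and 1 TEAD site, that of Slit2 1 TATA box and 3 GC boxes, that of Pcolce2 1 GC box on the opposite strand, and that of Fmod none of these letters. Among the 4713 tested genes with a single promoter, GGGCGG was present in 63.7%, against 58.5% of the 41 higher and 66.7% of the 27 lower genes that had one. TATAAA was present in 6.49%, 9.76% and 7.41% in the same order, CATTCC in 10.8%, 17.1% and 7.41%, and CCAAT in 38.1%, 31.7% and 25.9%. The CArG box, the motif bound by serum response factor, was in 1.23%, 2.44% and 0%. These shares are descriptions of letters in a short window.

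The other genes furthest above both neighbours had membrane, cytoskeletal and secreted products. Aoc3, an amine oxidase of vessel walls and fat, had 5.67, 7.73 and 7.54 in meniscus, 4.40, 4.35 and 5.03 in cartilage and 4.70, 4.59 and 4.47 in ligament. Meniscus replicate 1 was well below the other meniscus arrays and still above the neighbours, and the difference was 2.24 ± 0.42, at least 3.00-fold (limma, Benjamini-Hochberg adjusted p = 0.0389). Nav1, a microtubule-binding protein named for its role in neurons, had 7.28, 7.34 and 7.17 in meniscus, 5.29, 5.73 and 5.45 in cartilage and 5.53, 6.03 and 4.65 in ligament. It was 1.67 ± 0.28 higher, or 3.18-fold (limma, Benjamini-Hochberg adjusted p = 0.0282), and above background on 1 ligament array. Its 2 further probes differed by 0.87 and 2.14 before the median gene was subtracted, against 1.82 for the probe used. Cntnap4, an adhesion protein of the neurexin superfamily, was 1.92 ± 0.27 higher (at least 2.32-fold), Vat1l 1.91 ± 0.32 (3.75-fold), Fam13c 1.72 ± 0.27 (at least 2.06-fold) and the secreted C1q-like protein C1ql3 1.55 ± 0.31 (2.94-fold). The probes of Cntnap4 disagree in size: 2 further ones differed by 0.70 and 2.29 before the median gene was subtracted, against 2.07 for the probe used. Vat1l was above background on 1 cartilage and 2 ligament arrays, and C1ql3 on 2 and 2. Both passed the detection filter through meniscus alone. The scaffold protein gene Slc9a3r1 was 2.01 ± 0.44 higher (limma, Benjamini-Hochberg adjusted p = 0.04997), with meniscus at 8.38 to 8.66 and cartilage spread from 5.81 to 7.64. The remaining large rises were Limk1, the kinase that inactivates the actin-severing protein cofilin, at 1.58 ± 0.33 (at least 2.10-fold), and the potassium channel subunit Kcne1l at 1.56 ± 0.27 (2.94-fold). Kcne1l was above background on 2 cartilage arrays and 1 ligament array, and likewise passed the filter through meniscus alone. So did Aoc3 and Fam13c, as well as Alox12 and Slit2 above, and all of these had to be brighter in meniscus to be tested.

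**Figure D2:**
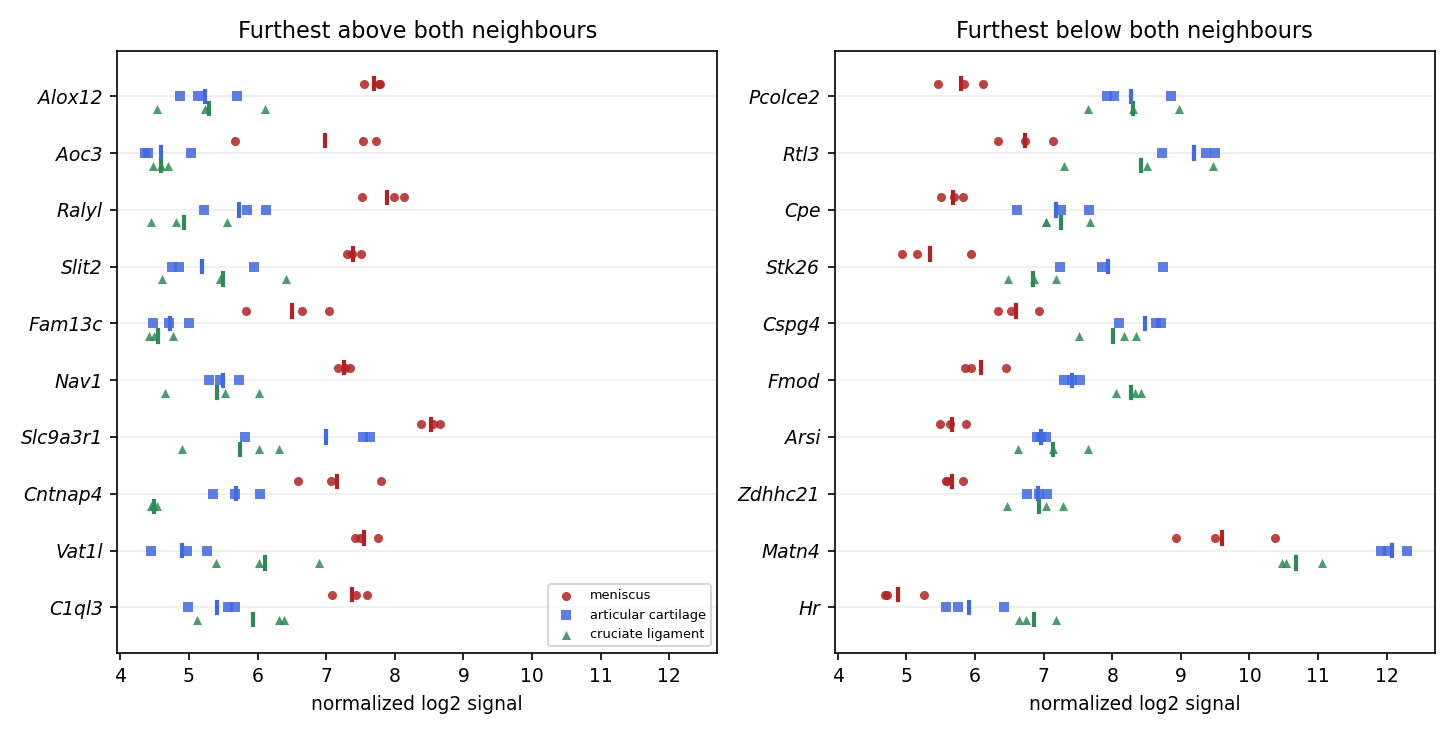
Normalized log2 signal of the 10 called genes furthest above and the 10 furthest below their nearer neighbour, 1 symbol per array and a vertical bar at the mean of each tissue. The signals were 7.56 to 7.78 in meniscus and 4.54 to 6.11 in both neighbours for Alox12, and 5.46 to 6.11 against 7.64 to 8.97 for Pcolce2.

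Several genes with large differences had a bright neighbour and a dim one. Col8a1, a short-chain collagen of vessel walls and basement membranes, had 8.88, 9.75 and 9.52 in meniscus, 8.05, 9.06 and 9.56 in cartilage and 5.72, 5.55 and 5.11 in ligament. Meniscus and cartilage overlapped and ligament was below background on all arrays. The difference from the midpoint was 2.06 ± 0.34, at least 3.59-fold, while that from cartilage was 0.50 before the median gene was subtracted (limma, Benjamini-Hochberg adjusted p = 0.0282 and 0.735). A further probe of Col8a1 differed from the midpoint by 0.44 before that subtraction, against 2.21 for the probe used. Thbd had the same order, with 8.67, 8.52 and 8.16 in meniscus, 7.70, 7.63 and 8.12 in cartilage and 5.09, 4.57 and 6.35 in ligament. The reverse order, with cartilage dim, was seen for Myl9 and Igfbp3, described with their groups.

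The other genes furthest below both neighbours were bright in cartilage and ligament alike. Cpe, a carboxypeptidase that processes peptide hormones, had 5.50, 5.69 and 5.83 in meniscus, 7.66, 7.25 and 6.62 in cartilage and 7.03, 7.68 and 7.04 in ligament. No array of a neighbour reached the meniscus range, and the difference was -1.69 ± 0.27, 3.23-fold lower (limma, Benjamini-Hochberg adjusted p = 0.0345). Rtl3, a gene derived from a retrotransposon, had a difference of -2.23 ± 0.43 (limma, Benjamini-Hochberg adjusted p = 0.04997), with 6.33 to 7.13 in meniscus, 8.73 to 9.50 in cartilage and 7.29 to 9.47 in ligament. The kinase gene Stk26 was at -2.20 ± 0.35 and above background on 1 meniscus array. A further probe of Stk26 differed by -1.11 before the median gene was subtracted, against -2.05 for the probe used. The arylsulfatase Arsi was at -1.54 ± 0.23, the palmitoyltransferase Zdhhc21 at -1.40 ± 0.21 and the nuclear corepressor Hr at -1.65 ± 0.25. Also before that subtraction, a further probe of Zdhhc21 differed by -0.16 against -1.26 for the probe used, so the probes of that gene disagree.

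A second kind of fall was set mainly by a bright ligament. Zc3hav1, an antiviral RNA-binding protein, had 4.60, 4.50 and 4.86 in meniscus, where no array was above background, 5.63, 5.37 and 5.54 in cartilage and 8.80, 8.16 and 8.43 in ligament. Every tissue was separate from the others, and the difference was -2.49 ± 0.20, at least 4.10-fold lower (limma, Benjamini-Hochberg adjusted p = 0.00609, the lowest of all called genes). Mid1, a microtubule-associated ubiquitin ligase, had 7.45, 7.00 and 8.12 in meniscus, 8.64, 7.93 and 8.09 in cartilage and 10.48, 11.21 and 11.19 in ligament. Its difference was -2.22 ± 0.30, although meniscus and cartilage overlapped (limma, Benjamini-Hochberg adjusted p = 0.0237, and 0.518 against cartilage alone). Hrob, a DNA repair factor, and the cystatin Cst11 followed the same order at -1.59 ± 0.18 and -1.59 ± 0.23. Because ligament and its array set cannot be told apart, a bright ligament signal may belong to either.

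Of 21 tested genes of the cartilage matrix 1 had a difference above that of the median named gene. In the list 0 were called higher and 3 lower (Matn4, Fmod and Snorc), where 0.594% of all named genes were called lower, and 0 and 14 had an unadjusted p under 0.05, where 4.7% of all named genes were lower. The list median was -1.33, where the median of all named genes is 0 by construction. Of the 21, 9 were detected on all 9 arrays and 6 passed the filter through cartilage alone, so a low meniscus value is partly fixed by the filter for those 6. Matn4, a matrilin that bridges matrix networks, had 8.93, 9.49 and 10.36 in meniscus, 11.91, 12.30 and 12.02 in cartilage and 10.47, 10.53 and 11.06 in ligament. Meniscus was lowest on every array, nearest to ligament, and the difference was -1.93 ± 0.31, or 3.82-fold (limma, Benjamini-Hochberg adjusted p = 0.0345). Snorc, a chondrocyte membrane proteoglycan, was bright in cartilage alone and below background on every meniscus and ligament array, so its call of -1.60 ± 0.23 places it away from the midpoint and not below ligament. On the meniscus arrays the list's mean signal was 6.77 to 7.38, against 9.01 to 9.73 in cartilage and 6.72 to 7.54 in ligament. Meniscus therefore overlapped ligament on this list and lay far from cartilage, and 12 of the 21 members had a meniscus mean between both neighbours. Members that missed the threshold included the matrilin Matn1 at -3.14, Ucma at -2.35, the cytokine-like Cytl1 at -1.85 and Comp at -1.73 (limma, Benjamini-Hochberg adjusted p = 0.119, 0.102, 0.0779 and 0.169).

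Of the landmark genes 5 were tested and 0 called. Sox9, which directs cartilage formation, had 11.82, 11.28 and 11.39 in meniscus, 12.08, 12.17 and 12.17 in cartilage and 10.37, 10.38 and 10.80 in ligament, with the meniscus arrays between both neighbours and overlapping neither. Its difference from the midpoint was 0.02 ± 0.19 (limma, Benjamini-Hochberg adjusted p = 0.696). Acan, the large proteoglycan of cartilage, also lay between at -0.63 ± 0.31, and Col1a1, the main collagen of ligament, at -0.55 ± 0.18. Col2a1, the main collagen of hyaline cartilage, lay below both neighbour means at -0.89 ± 0.21 (limma, Benjamini-Hochberg adjusted p = 0.446, 0.268 and 0.109 in that order). Gdf5, the growth factor that marks the joint interzone, was 1.32 ± 0.37 above (limma, Benjamini-Hochberg adjusted p = 0.0815), with no ligament array above background. Of the ligament landmarks, Tnmd and Scx were too dim to be tested, and Prg4 had no named probe, so 2 genes that define ligament could not be checked.

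Among 11 chondrocyte regulators 1 was called higher and 1 lower, with a median of -0.02, where 1.08% and 0.594% of all named genes were called. Foxa3, a forkhead factor that acts in chondrocyte hypertrophy, had 4.69, 4.44 and 4.85 in meniscus, 8.95, 9.35 and 8.26 in cartilage and 4.74, 4.47 and 6.34 in ligament. It was bright in cartilage alone, and 2 of the 3 ligament arrays lay within the meniscus range. Foxa3 passed the detection filter through cartilage alone, so a low meniscus value is partly fixed by the filter. Its difference was -2.51 ± 0.41, at least 4.19-fold lower (limma, Benjamini-Hochberg adjusted p = 0.0356). Nfatc1, a calcium-dependent transcription factor of joint progenitors, was 0.90 ± 0.21 above, at least 1.64-fold, with meniscus at 7.20 to 7.56 overlapping cartilage at 6.86 to 7.30. Its 3 further probes differed by 0.56, 0.88 and 0.48 before the median gene was subtracted, against 1.05 for the probe used.

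The fibrous matrix lists held 1 call each, where 1.67% of all named genes were called. Of 16 collagens of dense connective tissue Col8a1 alone was called higher and 0 lower (median 0.20), of 17 tendon and ligament genes 0 and Fmod alone (median 0.18), and of 19 genes that cross-link or remodel the matrix 0 and Pcolce2 alone (median 0.18). Of 15 leucine-rich proteoglycan and elastic fibre genes 0 were called higher and Fmod lower (median 0.13). Members above the midpoint that missed the threshold were the lysyl oxidases Lox (1.31) and Loxl1 (1.35), which cross-link collagen and elastin, elastin itself (Eln, 1.12) and the proteoglycan Kera (1.16). Their limma Benjamini-Hochberg adjusted p-values were 0.0902, 0.0582, 0.0863 and 0.126. Below the midpoint and likewise not called were the lysyl oxidase Loxl4 at -0.88 and the prolyl hydroxylase P4ha1 at -1.10 (limma, Benjamini-Hochberg adjusted p = 0.0779 and 0.135).

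**Figure D3:**
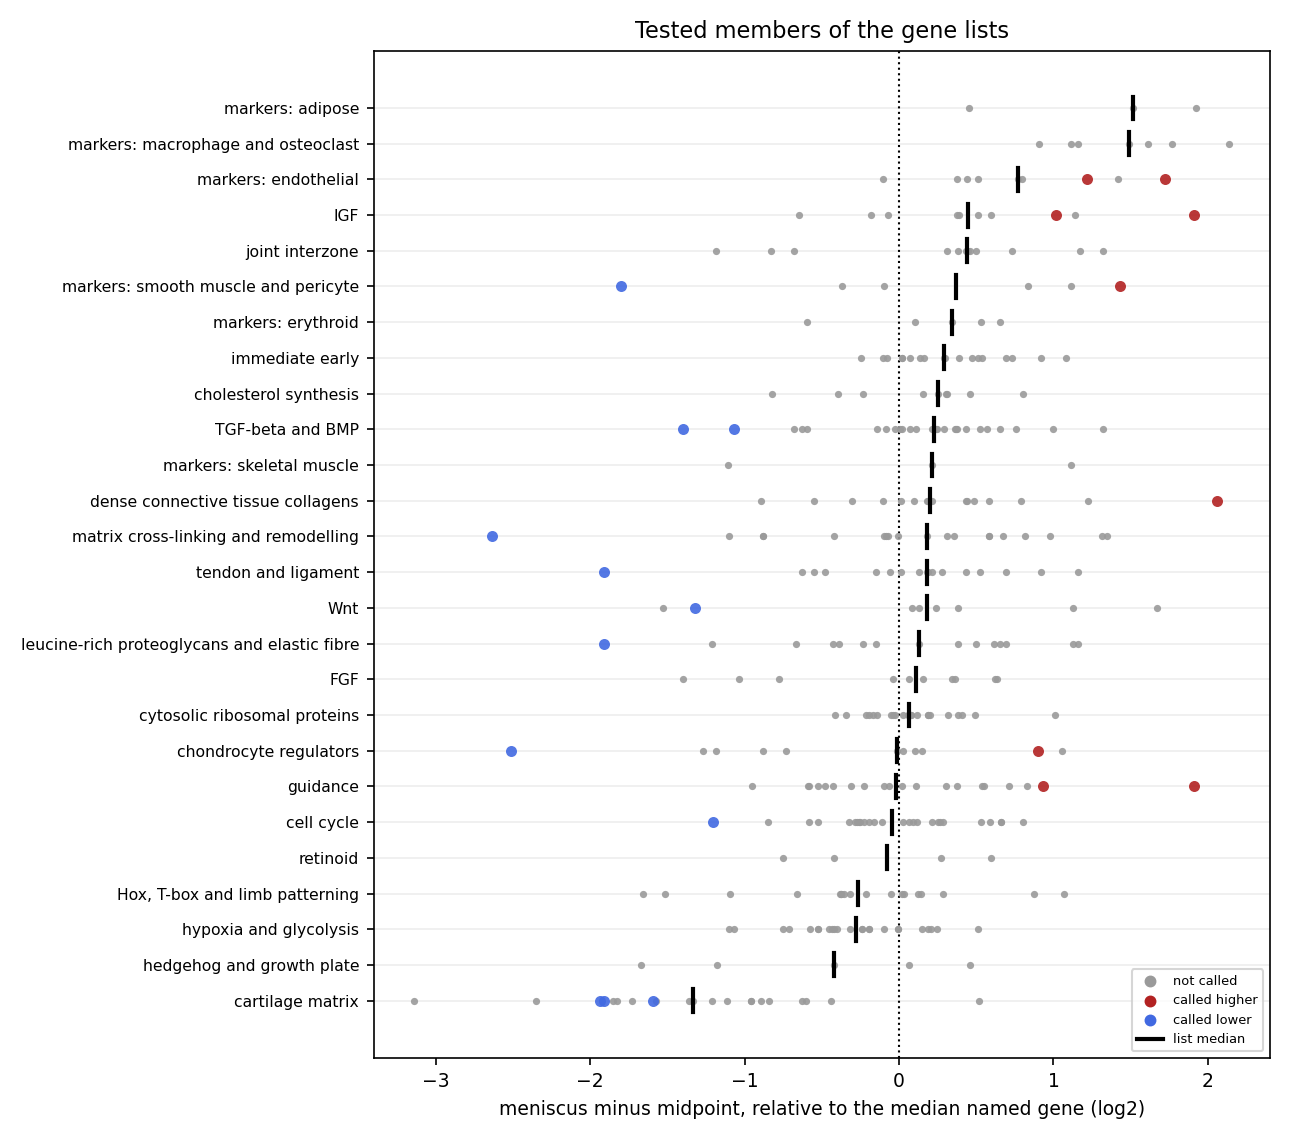
Differences of the tested members of each gene list from the midpoint, relative to the median named gene (log2), with 1 point per gene, called genes in colour and a bar at the list median. Lists with under 3 tested members are left out. The cartilage matrix list has the lowest median shown, -1.33, and the 3 marker lists at the top hold mostly genes that passed the detection filter through meniscus alone.

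The IGF list held 2 genes called higher and 0 lower of 10 tested, where 1.08% of all named genes were called higher, and had a median of 0.45. Igfbp2, a secreted binding protein that holds insulin-like growth factors, had 9.19, 9.12 and 9.24 in meniscus, 8.27, 7.81 and 8.97 in cartilage and 6.09, 6.13 and 5.45 in ligament. All meniscus arrays lay above all others, closest to cartilage, and the difference was 1.91 ± 0.27 or 3.76-fold (limma, Benjamini-Hochberg adjusted p = 0.0211). Igfbp3, the main carrier of these factors in blood, had 9.41, 9.97 and 9.71 in meniscus, 7.18, 7.22 and 7.99 in cartilage and 9.45, 9.69 and 9.67 in ligament. Meniscus and ligament overlapped and cartilage was low, so at 1.01 ± 0.23 from the midpoint the level was about that of ligament (limma, Benjamini-Hochberg adjusted p = 0.0472, and 0.85 against ligament alone). A further probe of Igfbp3 differed by 0.73 before the median gene was subtracted, against 1.16 for the probe used. The ligand gene Igf1 was at 1.14 and missed the threshold (limma, Benjamini-Hochberg adjusted p = 0.0779), Igf2 was at -0.07 and the receptor gene Igf1r at 0.39.

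Of 8 Wnt genes 0 were called higher and Frzb lower (median 0.18). Frzb, a secreted Wnt antagonist of articular cartilage, had 5.67, 6.42 and 6.39 in meniscus, 8.01, 8.66 and 8.15 in cartilage and 6.24, 6.51 and 6.44 in ligament, bright in cartilage alone, with meniscus and ligament overlapping. Its difference was -1.32 ± 0.24 (limma, Benjamini-Hochberg adjusted p = 0.0486). The other secreted antagonists of the list, Sfrp1 (0.24), Sfrp2 (0.38) and Dkk3 (0.08), were not called. The Wnt enhancer Rspo2 at 1.67 and the Wnt inhibitor Wif1 at -1.53 missed the threshold (limma, Benjamini-Hochberg adjusted p = 0.0583 and 0.0646). Of 26 TGF-beta and BMP genes 0 were called higher and 2 lower (median 0.23): Chrdl1, a secreted BMP antagonist, was above background in ligament alone at -1.07 ± 0.18, and Id4, a helix-loop-helix inhibitor induced by BMPs, in cartilage alone at -1.40 ± 0.25. For both genes the meniscus and the other neighbour were below background, so no fold is given. Each passed the detection filter through its bright neighbour alone, so a low meniscus value is partly fixed by the filter. Among all named genes 1.08% were called higher and 0.594% lower, to be set beside the counts of the Wnt list and of this list.

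Of 20 guidance genes Slit2 and Sema6d were called higher and 0 lower, with a median of -0.02. Among all named genes 1.08% were called higher and 0.594% lower. Of the 20, 5 passed the detection filter through meniscus alone, Slit2 among them, where 8.71% of all named genes did. The direction of those 5 is partly fixed by the filter. Sema6d, a membrane semaphorin, was 0.93 ± 0.22 above, with 9.77 to 10.13 in meniscus, 8.26 to 9.07 in cartilage and 9.06 to 9.27 in ligament. The Slit2 receptor gene Robo1 was at 0.37 and its paralogue ligand Slit3 at 0.54, neither called. Of 26 cell cycle genes 0 were called higher and 1 lower (median -0.04). That gene was Ccnd1, the cyclin that carries growth signals into the first gap phase, with 8.93, 9.26 and 9.44 in meniscus, 10.44, 10.42 and 10.47 in cartilage and 9.79, 10.09 and 10.37 in ligament. Meniscus was lowest on every array, at -1.21 ± 0.20 or 2.31-fold (limma, Benjamini-Hochberg adjusted p = 0.0411). A further probe of Ccnd1 differed by -1.11 before the median gene was subtracted, against -1.06 for the probe used.

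No gene was called by limma in 9 further lists, whose tested members numbered 4 to 24. At an unadjusted p under 0.05, 5 of 12 joint interzone genes were higher and 0 lower (median 0.44), and of 18 immediate early genes 6 and 0 (median 0.29). The counts were 2 and 2 of 10 FGF genes (median 0.11), 1 and 2 of 5 hedgehog and growth plate genes (-0.42), 2 and 2 of 18 Hox, T-box and limb patterning genes (-0.27), and 1 and 1 of 4 retinoid genes (-0.08). They were 1 and 3 of 24 hypoxia and glycolysis genes (-0.28), 2 and 0 of 24 cytosolic ribosomal protein genes (0.07) and 3 and 0 of 9 cholesterol synthesis genes (0.25). Among all named genes the shares were 12.9% and 4.7%.

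Markers of other cell types were also measured, since a dissected piece can hold more than one. Of 9 endothelial markers, Cldn5, a tight junction protein of vessels, and Thbd, the thrombin receptor thrombomodulin, were called higher and 0 lower. Among all named genes 1.08% were called higher and 0.594% lower. In this list 7 of the 9 passed the detection filter through meniscus alone, where they had to be high, so the direction of the list is partly fixed by the filter and supports nothing. Cldn5 had 5.47, 6.34 and 6.14 in meniscus and 4.30 to 5.19 on the 6 other arrays, none of them above background, at 1.22 ± 0.25 or at least 1.28-fold (limma, Benjamini-Hochberg adjusted p = 0.0403). Thbd was 1.72 ± 0.36 above, 3.30-fold (limma, Benjamini-Hochberg adjusted p = 0.0428), with its probe above background on 1 ligament array. Against cartilage alone it was not called, at 0.63 before the median gene was subtracted (limma, Benjamini-Hochberg adjusted p = 0.65). On the meniscus arrays the list's mean signal was 6.02, 6.81 and 6.35, against 5.13, 5.14 and 5.27 in cartilage and 6.19, 5.75 and 5.21 in ligament. The defining markers Pecam1 and Cdh5 were above background on the meniscus arrays alone, at 0.44 and 0.77 (limma, Benjamini-Hochberg adjusted p = 0.177 and 0.149), while Kdr, Flt1, Tie1 and Vwf did not pass the detection filter.

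Of 7 tested macrophage and osteoclast markers limma called 0 over all genes. In this list 6 of the 7 passed the filter through meniscus alone, so their upward direction is partly fixed by the filter. On the meniscus arrays their mean signal was 6.72, 8.26 and 7.87, against 5.20, 5.31 and 5.67 in cartilage and 8.12, 6.37 and 5.42 in ligament, so ligament replicate 1 lay within the meniscus range. The largest differences were those of Aif1 (2.14), Laptm5 (1.77) and Mrc1 (1.61), with limma Benjamini-Hochberg adjusted p = 0.186, 0.269 and 0.298, and Csf1r, Cd68 and the C1q genes did not pass the detection filter. Of 3 adipose markers limma called 0, and 2 of them, Fabp4 and Cd36, passed the filter through meniscus alone. Lpl, detected on all 9 arrays, was at 0.45. The list had mean signals of 6.95, 8.12 and 8.00 in meniscus, 5.83 to 6.63 in cartilage and 5.51 to 7.30 in ligament. Adipoq, Plin1 and Pparg did not pass. Meniscus replicate 1 had the lowest level of the endothelial, macrophage and adipose lists among the meniscus arrays, as it had for Aoc3, Cldn5 and Col8a1. It was also lowest for Alox12 (7.56 against 7.78 and 7.77) and Ralyl (7.53 against 8.13 and 7.99), by less than for Aoc3 (5.67 against 7.73 and 7.54). Other endothelial markers went another way: replicate 1 was highest for Thbd, and replicate 3 was lowest for Thbd, Esam and Plvap. The part of vessel, macrophage or fat cells in these differences was not tested, and in pieces of tissue more cells of a type and more RNA per cell cannot be told apart.

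**Figure D4:**
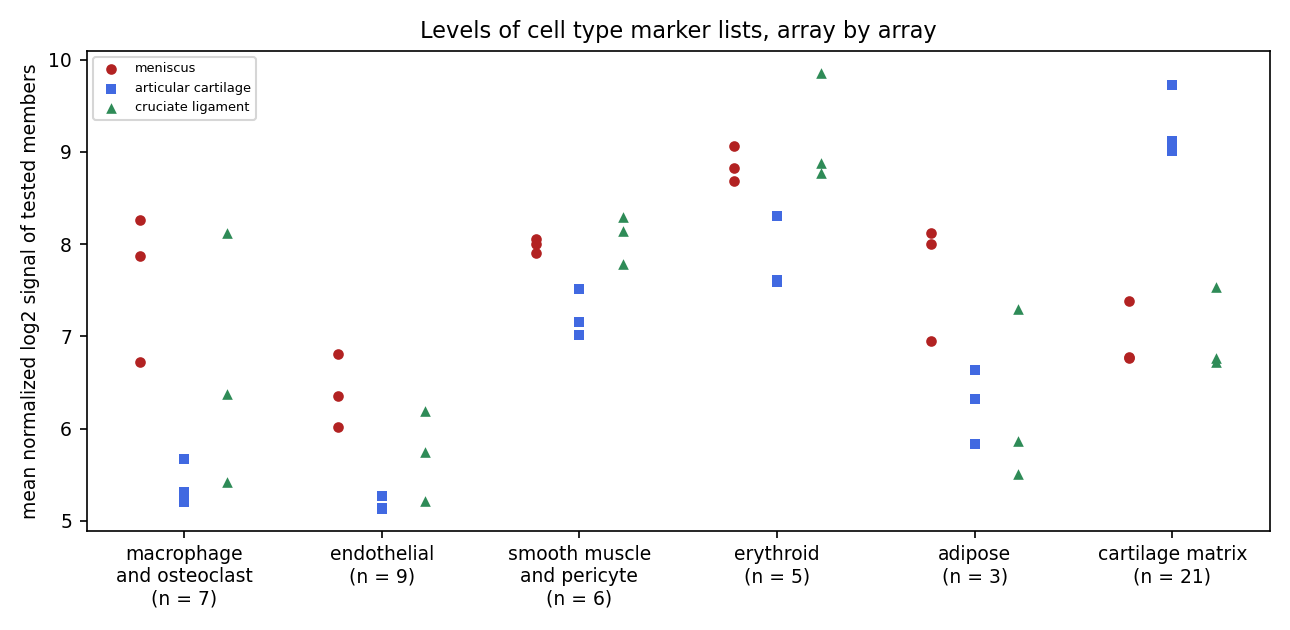
Mean normalized log2 signal of the tested members of 5 cell type marker lists and of the cartilage matrix list, 1 symbol per array. Meniscus lies at 6.02 to 6.81 for endothelial markers against 5.13 to 5.27 in cartilage and 5.21 to 6.19 in ligament, and cartilage stands apart from both other tissues for cartilage matrix.

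Of 6 tested smooth muscle and pericyte markers 1 was called higher and 1 lower (median 0.37), where 1.08% and 0.594% of all named genes were called. Myl9, the regulatory light chain of smooth muscle and non-muscle myosin, had 8.11, 7.45 and 6.80 in meniscus, 4.80, 4.68 and 5.16 in cartilage and 7.20, 6.36 and 7.07 in ligament. Meniscus and ligament overlapped, and the difference was 1.43 ± 0.31 (limma, Benjamini-Hochberg adjusted p = 0.0465, and 0.318 against ligament alone). Cspg4, the NG2 proteoglycan carried by pericytes and by immature chondrocytes, had 6.53, 6.34 and 6.93 in meniscus, 8.72, 8.63 and 8.10 in cartilage and 8.34, 8.16 and 7.52 in ligament. Every meniscus array was below every other array, at -1.80 ± 0.25 or 3.48-fold (limma, Benjamini-Hochberg adjusted p = 0.0282). By limma 0 were called of 5 erythroid markers (median 0.34), 3 skeletal muscle markers (0.21), 1 nerve and 1 epidermis marker, and at an unadjusted p under 0.05 the counts upward were 1, 0, 1 and 0 and downward 0, 1, 0 and 0. No osteoblast marker passed the filter.

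Set beside its neighbours, meniscus had the fewest genes away from the midpoint of the other tissues. The same test gave 191 higher (2.64%) and 107 lower genes (1.48%) for cartilage against the midpoint of meniscus and ligament, 4.12% of named genes. For ligament against the midpoint of meniscus and cartilage it gave 312 (4.31%) and 1076 (14.9%), 19.2% together. All 3 fits assume 1 shared spread, although the median SD was largest in ligament. With tissue-specific array weights the counts were 285 for meniscus, 469 for cartilage and 454 for ligament, so ligament no longer had the most. Ligament and its array set cannot be told apart. These comparisons use the same 9 arrays and are not independent, and differences between their counts were not tested.

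The weighting of the blend set many of the calls. Against a blend of 75% cartilage and 25% ligament 19 named genes were called higher and 20 lower, against 25% cartilage and 75% ligament 377 and 112, and against the midpoint of linear signals 32 and 48. When a gene had to differ from every weighting, which means from both neighbours on the same side, limma called 0 genes after adjustment. Without adjustment, at a p under 0.05, the counts were 173 and 78.

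**Figure D5:**
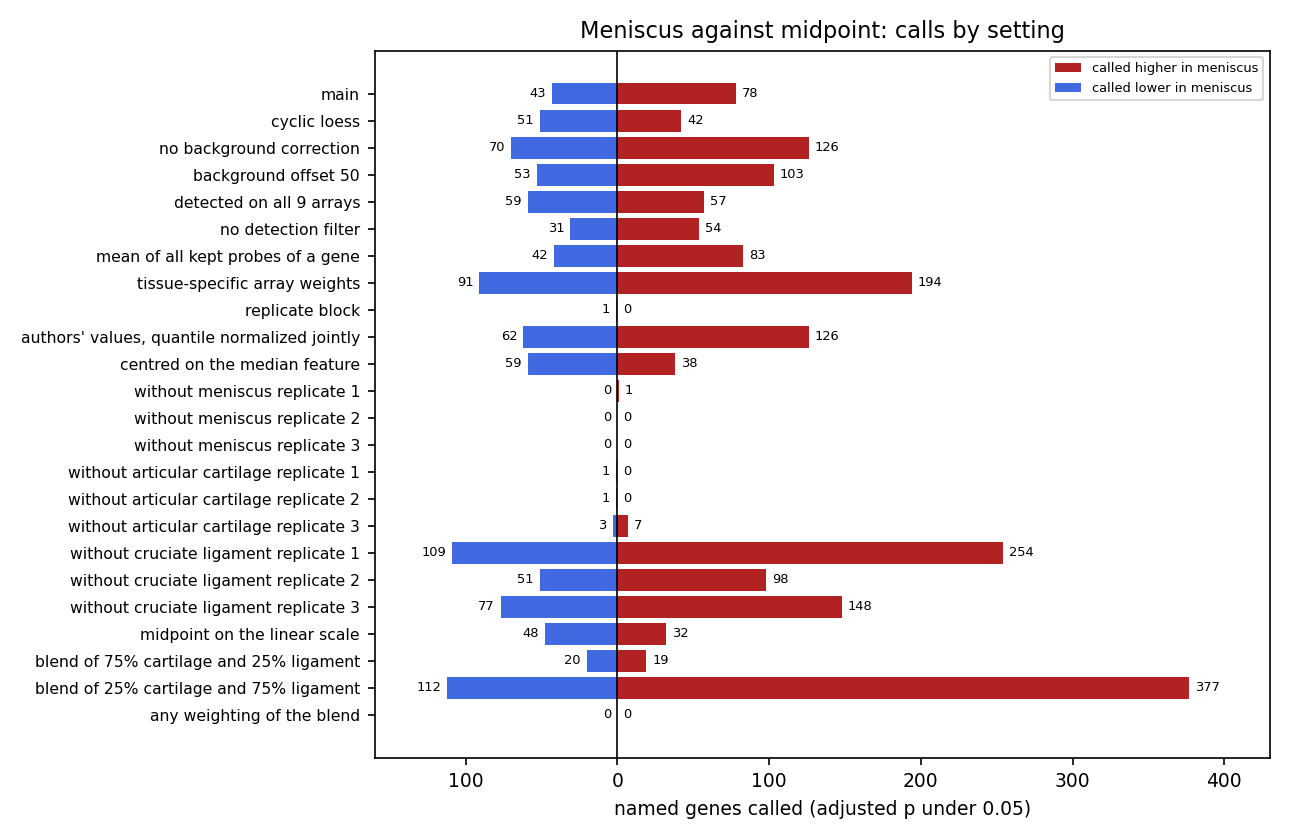
Number of named genes called lower (left) and higher (right) in meniscus against the midpoint under each setting, at an adjusted p under 0.05. The counts are 43 and 78 as reported, between 0 and 10 in all without 1 meniscus or cartilage array, and 0 when a gene had to differ from any weighting of the blend.

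Another scaling moved several named genes across the threshold. Centring on the median feature took Igfbp3, Myl9, Nfatc1, Sema6d, Slc9a3r1 and Slit2 past 0.05, to adjusted p-values by limma of 0.0617, 0.0536, 0.0640, 0.0651, 0.0554 and 0.0503. Cyclic loess did so for Chrdl1, Igfbp3, Limk1, Myl9 and Sema6d, at 0.0706, 0.0566, 0.0602, 0.0549 and 0.0592. Of the 78 higher genes 38 were still called when centred and 42 under cyclic loess, and of the 43 lower genes 43 and 40. Of the called genes 30 had a further kept probe, and in 4 of them (Atad2, B3gntl1, Enah and Myo5a) a further probe had the opposite sign. The other 58 higher and 23 lower genes that the naming rule did not pick had differences from 0.68 to 1.53 and from -1.52 to -0.99.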

How the data were processed

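RNA of 3 tissues was measured on 9 Illumina arrays. Per the labels' protocols RNA was extracted with the Arcturus PicoPure kit, treated with DNase, amplified with the NuGEN Ovation Pico system and labelled with the Encore BiotinIL module, and the submitters' processing notes name GenomeStudio. The deposited scanner tables give a signal intensity and a detection p-value per probe for each array, not normalized, per the file headers. The authors also deposited a table of processed intensity per probe, with meniscus and cartilage arrays normalized apart from ligament arrays, as its values show. The method behind it is not given in these sources.

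Scanner rows carry no gene names. Each of 45281 rows was matched by its ranks on the 9 arrays to a row of that table, whose probes the platform annotation names: 34885 probes had 1 symbol, 18 several and 10378 none. Signals of all 9 arrays were processed together with neqc in limma 3.58.1 (R 4.3.3): normexp background from detection p-values, offset 16, quantile normalization, log2. A probe was kept with detection p below 0.01 on all 3 arrays of a tissue, 12538 in all, and the brightest kept probe stood for a gene, giving 7234 named genes and 1932 unnamed probes. Tissue means were fitted with lmFit and eBayes over the 9 arrays with 1 shared spread, and p-values adjusted over 9166 features (Benjamini-Hochberg). The precision is limited by the number of arrays.

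Named genes were the 15 largest rises and falls among the calls, the 10 furthest beyond the nearer neighbour in each direction, called members of 30 gene lists, and the landmarks. The comparison, the members and the lists were chosen with earlier results of these data known. A bound sets the bright mean against, for each dim array, the higher of the lowest detected signal and the probe's own, relative to the median named gene. On simulated data (9166 features, 200 changed) the meniscus test recovered 33% of departures of 1 and 89% of departures of 2 log2 units. Of its 130 calls there, 8 were unchanged features. On the real arrays the median SD was 0.50 in ligament, against 0.25 in meniscus and 0.26 in cartilage. The median named gene lay 0.15 above the midpoint. The simulated figures hold for the simulated spread and centre, and may not carry over to the real arrays. Same-numbered arrays of different tissues correlated at -0.04 to 0.12 in their deviations from the tissue means, with 1 of 9 pairs over 0.1. Differently numbered arrays correlated at -0.11 to 0.06. Between meniscus and cartilage the same-numbered arrays 1 to 3 correlated at 0.08, 0.12 and 0.02. The numbers were not taken to pair samples in the main fit, and whether the samples were paired is not known. Alternatives covered background, normalization, detection filter, probe choice, array weights, replicate block, the authors' values, arrays left out and the weighting of the blend.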

Additional observations from a re-analysis of the deposited data

How the results depend on the processing

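The number of named genes called in meniscus against the midpoint, 121, ranged from 0 to 363 when 1 array was left out. It was 196 without background correction, 285 with tissue-specific array weights, 188 from the authors' values normalized jointly, 80 with a linear midpoint, 39 and 489 with blends of 75% and 25% cartilage, and 0 over any weighting. It stayed within 1.5 times of 121 under cyclic loess, offset 50, centring, no detection filter, detection on all 9 arrays and mean of probes. A like count was not always the same genes. With detection on all 9 arrays 3453 named genes were tested, and 43 of the 121 had a value. The 116 calls held 13 of the 78 higher and 30 of the 43 lower genes. Without a detection filter 19057 named genes were tested, and the 85 calls held 41 and 28. With the replicate number as a block the count was 1, although the replicate numbers were not shown to pair samples. All 121 calls kept their direction under every setting that gave them a value, except 1 with the mean of probes. The settings reuse the arrays on which the genes were called, so the kept directions are no independent test. For cartilage against the midpoint (298) the count was 469 with weights, 164 with the replicate block and 34 to 505 with 1 array left out. For ligament against the midpoint (1388) it was 454 with weights, 781 for genes detected on all 9 arrays and 854 to 1532 with 1 array left out. For ligament against cartilage (1098) it was 471, 617 and 418 to 1343. The share of named genes with the meniscus mean outside both neighbours, 58.9%, was 56.8% to 61.8%. Before the median gene was subtracted, the difference of Acan turned from -0.48 to 0.13 with 25% cartilage in the blend. That of Sox9 turned from 0.17 to -0.0447 with a linear midpoint and -0.23 with 75% cartilage. The median named gene lay at 0.20 with 25% cartilage, so Acan stayed below it there. It lay at 0.11 with a linear midpoint and 0.09 with 75% cartilage. The cause of these changes was not tested. Ligament arrays, with the fewest detected probes and the widest spread, had array weights of 0.42 against 1.60 for meniscus and 1.49 for cartilage.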

Other observations

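Among the called genes that the naming rule did not pick, the following were chosen after their values were seen. Higher in meniscus were Tmem204 by 1.46 ± 0.32 (at least 2.43-fold), the endothelial lipase Lipg by 1.32 ± 0.25, Ctla2a by 1.35 ± 0.31, the adenylyl cyclase Adcy4 by 0.94 ± 0.20 and the repressor Bcl6b by 0.88 ± 0.20 (log2 relative to the median named gene, SE). Also higher were the LIM protein gene Csrp2 by 1.39 ± 0.30, Fhl2 by 1.00 ± 0.16 (at least 1.25-fold) and thymosin beta 4 (Tmsb4x), which binds actin monomers, by 0.73 ± 0.18, while the actin regulator Enah was lower, at -1.07 ± 0.19, and so was the actin motor Myo5a, at -1.05 ± 0.19, each with a further probe of the opposite sign. Vcan, the large proteoglycan of loose embryonic tissue, was higher by 0.72 ± 0.18, and 3 further probes of Vcan differed in the same direction by 0.57 to 1.07 before the median gene was subtracted. The collagen Col22a1, known from tissue junctions such as that of muscle and tendon, was higher by 1.50 ± 0.33. The forkhead factor Foxp1 was higher by 1.21 ± 0.23 with all 9 arrays above background and no overlap with either neighbour. The sialyltransferases St6galnac2 and St3gal5 were lower, at -1.08 ± 0.19 and -0.99 ± 0.17. All of these had a limma Benjamini-Hochberg adjusted p under 0.05.

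Of the 1932 tested probes without a gene symbol, 12 were called higher and 38 lower in meniscus than the midpoint.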
